A study of Mus musculus with 20 samples.

Results

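The genes described here are 31 members of the p53 response of the mouse: Trp53, which encodes p53, its inhibitors Mdm2 and Mdm4, and genes known as p53 targets. They were chosen by gene symbol with earlier results of these data known, and no measured value enters the rule. They are 31 of the 27998 genes listed in the single-cell RNA-seq (scRNA-seq) tables and 31 of the 24062 genes listed in the RNA-seq tables, where 30 carry the same symbol and Tigar stands under its older symbol 9630033F20Rik.

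p53 is a transcription factor that is kept at a low level because Mdm2 marks it for degradation and Mdm4 blocks its activity. DNA damage and other stresses activate kinases that phosphorylate p53 and release it from these inhibitors. Stabilized p53 then binds response elements near its targets, which slow the cell cycle, repair DNA, limit growth and metabolism, or open the mitochondrial and death receptor routes to apoptosis. In the hippocampus, where neural stem cells (NSCs) of the dentate gyrus keep making neurons after birth, p53 is known as a brake on the proliferation of stem and progenitor cells.

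Cultured mouse NSCs were infected with a lentivirus that carried a short hairpin RNA against Setd8 or a scrambled hairpin as control, selected with puromycin, and collected for RNA-seq of polyadenylated RNA. The sample labels put collection 3 days after infection, while the study's table that holds these libraries gives an earlier day. Setd8 is the enzyme that makes H4K20me1, the form of histone H4 with a single methyl group on this lysine. According to the study's methods the cells are a long-passaged line from embryonic cortex, whereas the sample labels name the hippocampus, so the culture is a model at a distance from the adult dentate gyrus. For the single-cell assays, cells positive for Nestin-EGFP, a green fluorescent reporter under control of the Nestin promoter, were sorted from the dentate gyrus of mice at postnatal day 5 (P5), 12 weeks (12w) and 24 weeks (24w), with 1 scRNA-seq and 1 single-cell ATAC-seq (scATAC-seq) library at each age. This reporter also labels cells of blood vessels, so the sort is not made of NSCs and their progeny alone.

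Of the 6 RNA-seq samples listed, 4 hold expression values, in transcripts per 1000000 (TPM). They do not follow their titles. The values of the libraries titled Ctrl_3, Setd8KD_1 and Setd8KD_2 equal, in 170 of 170 genes each, those of control columns in a table provided by the study, and the values of the library titled Setd8KD_3 equal those of its knockdown column. The level of Setd8 was 154 TPM in the library titled Ctrl_3, 143 TPM in that titled Setd8KD_1, 143 TPM in that titled Setd8KD_2 and 36.4 TPM in that titled Setd8KD_3. Setd8 thus goes against the titles Setd8KD_1 and Setd8KD_2. Below, these 3 higher libraries are called the controls and the fourth the knockdown (KD), the grouping of the study's table. Setd8 was 4.03-fold lower with KD (log2 difference −1.98 ± 0.07 SE, limma, adjusted p = 0.000113). Each fold and p below compares 1 KD library with 3 controls, takes its spread from the controls and assumes that the KD library varies like them, so KD and the variation of that single culture cannot be told apart. Nothing says that the controls came from separate cultures, so the p-values measure the spread between these samples, which may be technical. Whole reads could be recovered from the TPM and gene lengths, and came to 20040058 to 21493328 per library.

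The cultures had the NSC genes Sox2 (226 to 251 TPM in the controls, 245 TPM with KD), Vim (5376 to 5652 and 5018 TPM) and Nes (191 to 236 and 150 TPM). Of 10 markers of adult dentate NSCs, 7 were below 1 TPM in every library. The summed level of 8 markers of dividing progenitors, none of them below 1 TPM in all libraries, was 1019 to 1044 TPM in the controls and 473 TPM with KD. That of 9 astrocyte markers was 4371 to 4592 and 4781 TPM, with 4 markers below 1 TPM. That of 8 markers of immature neurons was 793 to 827 and 1002 TPM, with 3 below 1 TPM. Dividing cells were thus fewer, or carried less of this RNA, with KD, which cannot be told apart in bulk samples. The part of this shift in the p53 results was not tested.

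The promoters of the members were read from RefSeq (GRCm38, the build of the data files), from 250 bases upstream to 50 bases downstream of the start site. A window was given for 23 members. The p53 response element is built from decamers of 10 bases, and 2 decamers next to each other make a full element. A decamer on either strand was found in 10 of 23 member promoters (43.5%), against 9.55% of the 27025 promoters of all genes. A decamer pair with at most 2 mismatches was found in 2 of 23 (8.7%), against 0.392% of all promoters, and no member promoter held a pair with 0 mismatches. The number of mismatches allowed was chosen after seeing the data. The sequences below show, in capitals, the pairs of Ccng1 and Ckap2, which moved in opposite directions with KD, and the decamers of 4 members that did and did not change. All are written from 5′ to 3′ on the strand of the gene.
Ccng1, chr11:40755442-40755501, minus strand, upstream, 1 mismatch: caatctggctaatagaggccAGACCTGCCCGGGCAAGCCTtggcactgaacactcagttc
Ckap2, chr8:22185983-22186042, minus strand, upstream, 2 mismatches: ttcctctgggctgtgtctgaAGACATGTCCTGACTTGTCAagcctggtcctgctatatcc
Gadd45a, chr6:67037418-67037467, minus strand, upstream: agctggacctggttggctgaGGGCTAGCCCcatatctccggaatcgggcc
Bax, chr7:45467070-45467119, minus strand, upstream: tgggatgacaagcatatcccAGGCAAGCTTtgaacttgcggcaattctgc
Mdm2, chr10:117710915-117710964, minus strand, upstream: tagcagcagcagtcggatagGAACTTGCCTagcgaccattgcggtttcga
Trp53, chr11:69580264-69580313, plus strand, upstream: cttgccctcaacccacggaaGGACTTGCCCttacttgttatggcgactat

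The first question was how these genes differed when Setd8 was knocked down. With KD, 19 of the 31 members rose, 2 fell and 10 did not pass the test, which is an adjusted p under 0.05 in limma over the 12703 genes with a mean of at least 1 TPM. All 31 members were among those genes. Of all genes tested, 20% rose and 21.7% fell. Without the filter on low values 9 members rose and 0 fell, where 1196 and 1038 of all 24062 genes did. The median log2 difference of the members was 0.51, against 0.00 over all genes tested. The KD library lay above all 3 controls for 25 members and below them for 5 (41.3% and 40.8% of all genes), and within their range for Rrm2b. With the further demand of a 1.5-fold change, 13 members rose and 1 fell, against 7.49% and 8.98% of all genes. By the role of the member, p53 and its inhibitors held 0 of 3 genes that passed, the mitochondrial route to apoptosis 4 of 4, the death receptors 3 of 3, cell cycle and growth arrest 7 of 7, other genes of apoptosis and survival 4 of 6, DNA repair and nucleotide supply 1 of 4, and metabolism and stress 2 of 4.

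**Figure D1:**
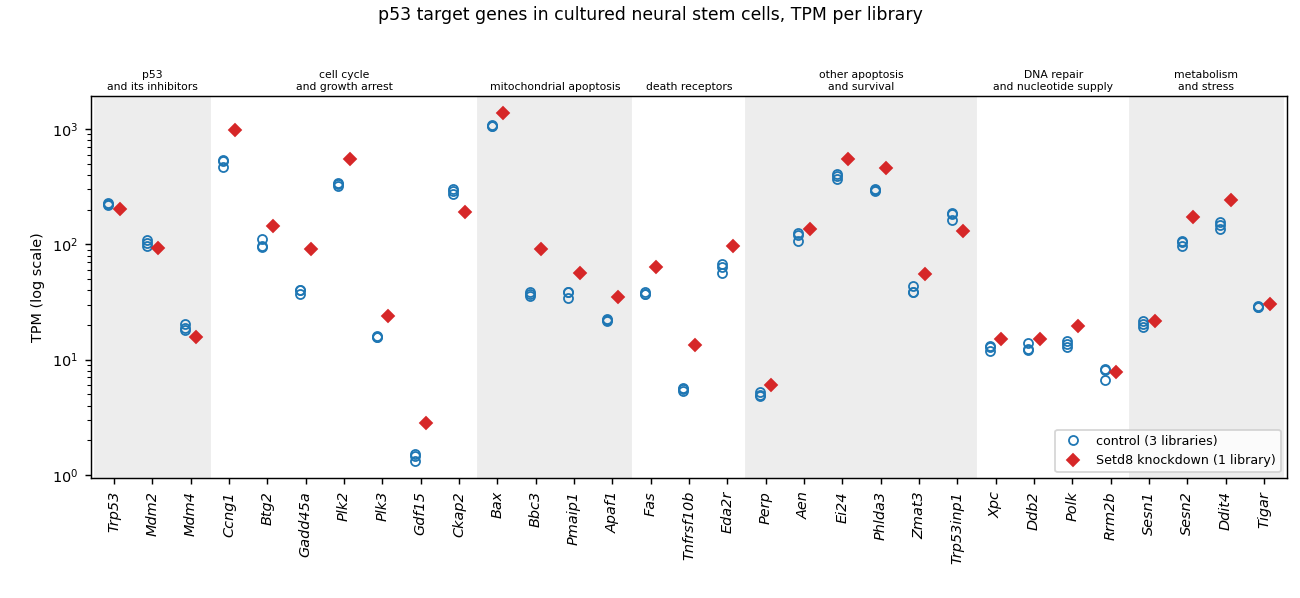
Level of the 31 members in TPM on a log axis in each control library (open blue circles, 3 libraries) and in the knockdown library (red diamonds, 1 library), ordered by role. Levels in the controls span from 1.43 TPM for Gdf15 to 1079 TPM for Bax. The knockdown library lies above all 3 controls for 25 members, as for 41.3% of all genes.

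Trp53 itself did not pass the test. Its level was 230, 220 and 223 TPM in the controls and 202 TPM with KD, below all of them, with a log2 difference of −0.15 ± 0.05 (SE, adjusted p = 0.0588). Mdm2, the ubiquitin ligase for p53 and at the same time its target, had 108, 103 and 97.3 TPM and 92.6 TPM (−0.15 ± 0.07, adjusted p = 0.153). Mdm4, the related inhibitor without ligase activity of its own, had 18.95, 20.4 and 18.0 TPM and 15.6 TPM (−0.27 ± 0.10, adjusted p = 0.0674). For each of the 3 genes the KD library was the lowest, as it was for 40.8% of all genes. None of the 3 differences passed the threshold in limma after adjustment over all genes tested. In edgeR on the recovered reads Mdm4 passed, with an adjusted p of 0.0324.

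Members that restrain the cell cycle were among those with the largest rises. Gadd45a, which binds Pcna and cyclin-dependent kinase Cdk1 after DNA damage, had 40.4, 40.3 and 37.0 TPM in the controls and 91.4 TPM with KD, 2.33-fold higher (log2 difference 1.2 ± 0.08, adjusted p = 0.000193). Ccng1, which encodes cyclin G1, a regulator of p53 turnover, had 524, 540 and 471 TPM and 976 TPM, 1.91-fold higher (0.93 ± 0.08, adjusted p = 0.000421). For both genes the controls lay close together and the KD library stood far above them.

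Plk2, a polo-like kinase induced by stress, had 341, 334 and 324 TPM in the controls and 550 TPM with KD (0.72 ± 0.05, adjusted p = 0.000245). Its relative Plk3 rose 1.5-fold, from a mean of 15.9 ± 0.179 (SD, n = 3) to 23.8 TPM (adjusted p = 0.00302). Btg2, an antiproliferative gene that acts in neurogenic progenitors, rose 1.43-fold, from 101 ± 8.74 (SD, n = 3) to 145 TPM (adjusted p = 0.00597). Gdf15, a secreted stress factor of the TGF-beta family, was the member with the lowest level. It had 1.46, 1.32 and 1.51 TPM and 2.82 TPM with KD, and its call was the least stable, with an adjusted p of 0.0269 in limma and of 0.320 in DESeq2 on the recovered reads. Without the control library titled Setd8KD_1 the adjusted p of Gdf15 was 0.0532.

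Ckap2, which encodes a protein of the mitotic spindle, was one of the 2 members that fell. It had 288, 301 and 273 TPM in the controls and 191 TPM with KD, 1.51-fold lower (−0.59 ± 0.07, adjusted p = 0.000922). The dividing cell marker Mki67 fell in the same libraries, from 41.9, 49.2 and 44.2 TPM to 21.6 TPM (−1.02 ± 0.10, adjusted p = 0.000606).

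The members of the mitochondrial route to apoptosis all rose. Bbc3 (Puma), a BH3-only protein that sets Bax and Bak1 free to act, had the largest rise of all members. It had 38.3, 35.4 and 37.3 TPM in the controls and 90.8 TPM with KD, 2.46-fold higher (1.27 ± 0.07, adjusted p = 0.000156). Pmaip1 (Noxa), another BH3-only protein, had 39.0, 38.4 and 34.4 TPM and 56.2 TPM (0.58 ± 0.09, adjusted p = 0.00314).

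Bax, which forms pores in the outer mitochondrial membrane, was the member with the highest level. It had 1073, 1072 and 1092 TPM in the controls and 1375 TPM with KD, 1.27-fold higher, the smallest change among the members that rose (0.35 ± 0.05, adjusted p = 0.00166). Apaf1, the scaffold on which caspase-9 is activated, had 21.6, 22.6 and 21.9 TPM and 34.6 TPM (0.63 ± 0.08, adjusted p = 0.00142). For each of these 4 genes of the mitochondrial route the KD library stood above all controls, as it did for 41.3% of all genes.

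The death receptors rose as well. Tnfrsf10b, the mouse TRAIL receptor, had 5.34, 5.68 and 5.55 TPM in the controls and 13.5 TPM with KD, 2.44-fold higher (1.15 ± 0.12, adjusted p = 0.000654). Fas had 38.5, 36.8 and 37.4 TPM and 64.2 TPM (0.76 ± 0.07, adjusted p = 0.000497). Eda2r, a receptor for ectodysplasin A2, had 63.3, 67.5 and 56.3 TPM and 96.2 TPM (0.62 ± 0.10, adjusted p = 0.00398). The KD library stood above the controls for all 3, as for 41.3% of all genes. In the control means these receptors ranged in level from 5.52 TPM (Tnfrsf10b) to 62.4 TPM (Eda2r).

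Of the other genes of apoptosis and survival, Phlda3, which competes with Akt for membrane lipids, had 298, 291 and 303 TPM in the controls and 463 TPM with KD (0.64 ± 0.05, adjusted p = 0.000347). Ei24 (Pig8), a membrane protein of the endoplasmic reticulum, rose from 389 ± 20.2 (SD, n = 3) to 552 TPM (adjusted p = 0.00174). Zmat3, an RNA-binding protein, rose from 40.5 ± 2.83 (SD, n = 3) to 55.6 TPM (adjusted p = 0.00835). The second member that fell was Trp53inp1, a stress protein that takes part in autophagy, with 187, 182 and 162 TPM in the controls and 131 TPM with KD (−0.43 ± 0.09, adjusted p = 0.00899). Aen, an apoptosis-linked nuclease, had 108, 121 and 125 TPM and 134 TPM (adjusted p = 0.129), and Perp, a membrane protein of desmosomes, had 5.25, 4.98 and 4.80 TPM and 6.03 TPM (adjusted p = 0.204). For Aen and Perp the KD library was the highest, but the difference was within what the spread of the controls allows.

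Of the 4 genes of DNA repair and nucleotide supply, 1 passed. Polk, a translesion DNA polymerase, had 14.6, 12.8 and 13.5 TPM in the controls and 19.5 TPM with KD (0.49 ± 0.11, adjusted p = 0.0114). Xpc and Ddb2, which recognize lesions in nucleotide excision repair, had log2 differences of 0.25 ± 0.10 (adjusted p = 0.102) and 0.23 ± 0.11 (adjusted p = 0.13). Rrm2b, the p53-controlled subunit of ribonucleotide reductase, had 8.31, 8.12 and 6.68 TPM and 7.84 TPM (adjusted p = 0.894) and is the one member within the range of the controls.

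Among the genes of metabolism and stress, Sesn2 and Ddit4 (Redd1), both inhibitors of the growth kinase mTORC1, rose. Sesn2 had 97.1, 105 and 106 TPM in the controls and 171 TPM with KD (0.73 ± 0.07, adjusted p = 0.000581). Ddit4 had 148, 136 and 156 TPM and 243 TPM (0.72 ± 0.08, adjusted p = 0.000936). Sesn1, a relative of Sesn2, had 21.7, 20.4 and 19.1 TPM and 21.8 TPM (adjusted p = 0.472), and Tigar, a phosphatase that lowers glycolytic flux, 29.2, 28.8 and 28.9 TPM and 30.6 TPM (adjusted p = 0.42). For Sesn1 and Tigar the KD library lay above the highest control by little.

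**Figure D2:**
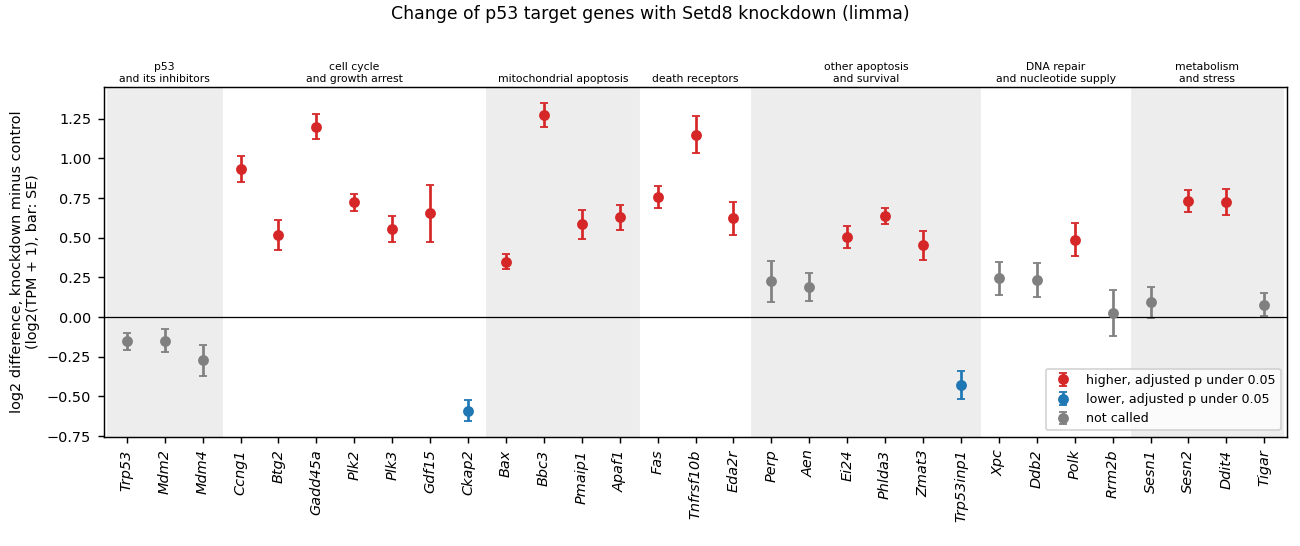
Log2 difference of each member between the knockdown library and the mean of 3 control libraries, on the log2(TPM + 1) scale, with its standard error from limma, ordered by role. Red points passed an adjusted p of 0.05 as higher (19 members), blue points as lower (Ckap2 and Trp53inp1), and grey points did not pass (10 members), among them Trp53, Mdm2 and Mdm4.

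Beside the members, 66 other genes of the p53 pathway were listed by role. Upstream kinases and mediators of the damage signal held 0 genes that rose and 8 that fell of 10, where 20% and 21.7% of all genes did, shares that also apply to the roles below. These were Atm (10.5 TPM in the mean of the controls, 5.49 TPM with KD), Atr (6.56 and 4.55 TPM), Chek1 (29.0 and 13.3 TPM), Chek2 (29.4 and 20.2 TPM), Prkdc (4.01 and 2.63 TPM), Mdc1 (30.2 and 15.4 TPM), H2afx (546 and 265 TPM) and Wrap53 (27.4 and 21.3 TPM). Several of these genes are known to be higher in dividing cells, and the part of the lower markers of division in their levels was not tested. Of 13 regulators of p53, 1 rose, the ubiquitin ligase Rchy1 (76.9 and 118 TPM), and 5 fell, among them the lysine methyltransferase Setd7 (21.1 and 8.49 TPM), the ribosomal protein Rpl11 (114 and 78.4 TPM) and the deubiquitinase Usp7 (54.1 and 43.9 TPM).

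Of 31 other direct targets, 28 passed the filter on low values, of which 17 rose and 2 fell. Cdkn1a, which encodes the cell cycle inhibitor p21, rose from a mean of 946 to 1461 TPM (log2 difference 0.63, adjusted p = 0.000255). Rises were also seen in Igfbp3 (2135 and 3755 TPM), an IGF-binding protein, Epha2 (5.16 and 12.3 TPM), Bcl2l1 (59.2 and 89.0 TPM), which protects mitochondria against Bax, Mgmt (43.2 and 73.6 TPM), Psrc1 (159 and 225 TPM), Ercc5 (35.5 and 47.7 TPM) and Pidd1 (22.2 and 32.2 TPM). The 2 that fell were Fdxr (31.7 and 25.9 TPM) and Trp53i11 (951 and 792 TPM). Among the partners in apoptosis that are reported, the BH3-only gene Bcl2l11 (Bim, 7.13 and 13.8 TPM) and Diablo (110 and 132 TPM) rose, and Bid (26.4 and 18.9 TPM) fell. Of the family members, neither Trp63 nor Trp73 passed the filter.

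The decamer matches and the change with KD can be set side by side for the 23 members with a RefSeq promoter window. Among the 10 with a decamer, 5 rose (Ccng1, Gadd45a, Bax, Ei24 and Polk), 1 fell (Ckap2) and 4 did not pass (Trp53, Mdm2, Aen and Sesn1). Among the 13 without one, 11 rose, 0 fell and 2 did not pass. A match is a description of these 300 bases and not a binding site. Many p53 elements are known to lie in introns or farther away. The members Trp53inp1, Ddb2, Rrm2b, Perp, Tnfrsf10b, Xpc, Pmaip1 and Zmat3 had no window in the table used.

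The second question was where in the dentate gyrus these genes are expressed. After filters and removal of doublets, 12752 cells from P5, 5271 from 12w and 2794 from 24w remained, with a median of 4261, 2271 and 2178 unique molecular identifiers (UMIs, each 1 captured RNA molecule) per cell. Levels are UMIs pooled over a class in counts per 1000000 (CPM), with exact 95% Poisson intervals that cover counting error only, as do all intervals below. Classes were named from marker genes with the members left out of clustering and naming, and held 1990 NSC-like, 3852 astrocyte-like (AS-like), 1559 neural progenitor-like (NPC-like), 700 early immature neuron-like (IMN1-like), 1180 later immature neuron-like (IMN2-like), 2299 oligodendrocyte precursor-like (OPC-like), 390 ependymal-like, 4688 pericyte-like and 803 smooth muscle-like cells. Clusters led by haemoglobin genes (1610 cells) and unnamed clusters (1387 cells), which had markers of several classes or fewer than 3 raised markers of any class, were left out. A total of 98 barcodes were shared between the P5 and 12w libraries, 63 between P5 and 24w and 26 between 12w and 24w.

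The levels of the members differed widely among the classes. The libraries are pooled, and pericyte-like and smooth muscle-like cells are mostly adult while the other classes are mostly from P5, so the mix of ages enters the order of classes. The highest class was the same as in the pooled libraries for 22 of 31 members within P5, 21 within 12w and 19 within 24w. Bax was the most abundant in total, with 20221 UMIs, and was highest in IMN1-like cells (371 CPM, interval 352 to 391), then NPC-like cells (328 CPM, 318 to 339), and lowest in ependymal-like cells (155 CPM, up to 175). Trp53 followed the same order, with 222 CPM (207 to 238) in IMN1-like cells, 177 CPM (170 to 185) in NPC-like cells, 155 CPM in IMN2-like cells, and lower levels in NSC-like (68.5 CPM), AS-like (56.1 CPM) and ependymal-like cells (32.4 CPM). Both genes thus stood highest where new neurons are formed. This also held within each age, except for Bax at 24w, where OPC-like cells had 422 CPM from 9 UMIs. Mdm2 was highest in ependymal-like cells (76.8 CPM, 64.4 to 90.9), with an interval that overlaps that of IMN1-like cells (57.4 CPM, 50 to 65.6). Mdm4 varied least, from 30.2 CPM in smooth muscle-like to 39.6 CPM in OPC-like cells.

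Among the cell cycle genes, Ckap2 marked dividing progenitors, with 98.6 CPM (93 to 104) in NPC-like cells and 31.3 CPM in OPC-like cells, against 5.17 CPM in NSC-like cells. Gadd45a was highest in pericyte-like cells (103 CPM, 97.3 to 109), followed by IMN1-like cells (44.9 CPM, 38.3 to 52.2), but at P5 their intervals overlapped (29.5 and 27.8 CPM). Plk3 was also highest in pericyte-like cells, with 12.9 CPM (10.9 to 15.2). Plk2 had 39.4 CPM in IMN2-like and 38.0 CPM in OPC-like cells, with overlapping intervals, and 3.14 CPM in pericyte-like cells, and at P5 IMN2-like cells were lower (17.3 against 37.3 CPM). Btg2 was high in smooth muscle-like (160 CPM), pericyte-like (149 CPM), NPC-like (125 CPM) and NSC-like cells (112 CPM). Within P5 this order turned, with 119 CPM in NSC-like, 112 CPM in NPC-like, 90.8 CPM in smooth muscle-like and 62.6 CPM in pericyte-like cells. Ccng1 was highest in ependymal-like cells (56.3 CPM, 45.8 to 68.6), and had 17.2 CPM in NSC-like cells.

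The apoptosis genes had separate patterns. Bbc3 was highest in IMN2-like cells (74.2 CPM, 66.9 to 82.1), above IMN1-like cells (33.6 CPM, 28.0 to 40.1), and lowest in AS-like cells (6.88 CPM). Apaf1 was low in every class, at most 8.59 CPM, in NPC-like cells. Perp was a gene of the vessel wall, with 754 CPM (738 to 770) in pericyte-like and 550 CPM (524 to 578) in smooth muscle-like cells, while NSC-like (11.8 CPM) and AS-like cells (3.63 CPM) held little. At P5 smooth muscle-like cells had the higher level of Perp, 157 against 122 CPM. Ei24 was highest in NSC-like cells (194 CPM, 185 to 204), above OPC-like cells (157 CPM, 148 to 166). Phlda3 was high in smooth muscle-like (83.4 CPM), ependymal-like (70.6 CPM) and OPC-like cells (69.1 CPM), in an order that was not the same at P5, with 32.9 CPM in AS-like cells and less, 20.8 CPM, in NSC-like cells. Fas had 30.2 CPM (22.6 to 39.4) in ependymal-like and 16.3 CPM in smooth muscle-like cells. Trp53inp1 was highest in ependymal-like cells (39.3 CPM). Zmat3 had 36.4 CPM in OPC-like and 29.0 CPM in ependymal-like cells, with overlapping intervals. Those of Aen also overlapped between IMN1-like (62.8 CPM) and NPC-like cells (60.1 CPM).

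Among the genes of repair and metabolism, Xpc was highest in the pooled pericyte-like cells, with 142 CPM (135 to 149) against 62.0 CPM (50.9 to 74.8) in ependymal-like and 9.59 CPM in NSC-like cells. Within P5 it had 55.3 CPM in pericyte-like and 62.5 CPM in ependymal-like cells, with overlapping intervals. Polk had 38.7 CPM (30.0 to 49.0) in ependymal-like cells and at most 11.1 CPM elsewhere. Ddb2 was at 13.5 CPM in NSC-like cells and at 13.1 CPM in ependymal-like cells, and Rrm2b 16.6 CPM in smooth muscle-like and 14.2 CPM in pericyte-like cells, with overlapping intervals in both cases. Ddit4 reached 119 CPM (IMN1-like) and 117 CPM (NSC-like), Sesn1 69.4 CPM in ependymal-like and 65.1 CPM in IMN1-like cells, Tigar 17.4 CPM (IMN1-like) and 16.2 CPM (NPC-like), and Sesn2 at most 7.71 CPM, in pericyte-like cells. A group of 4 members was barely detected in the tissue. Pmaip1 had 7 UMIs over all cells of these classes, Gdf15 27, Tnfrsf10b 44 and Eda2r 60. In the culture, on the different scale of TPM, Pmaip1 and Eda2r were at 37.2 and 62.4 TPM in the controls.

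**Figure D3:**
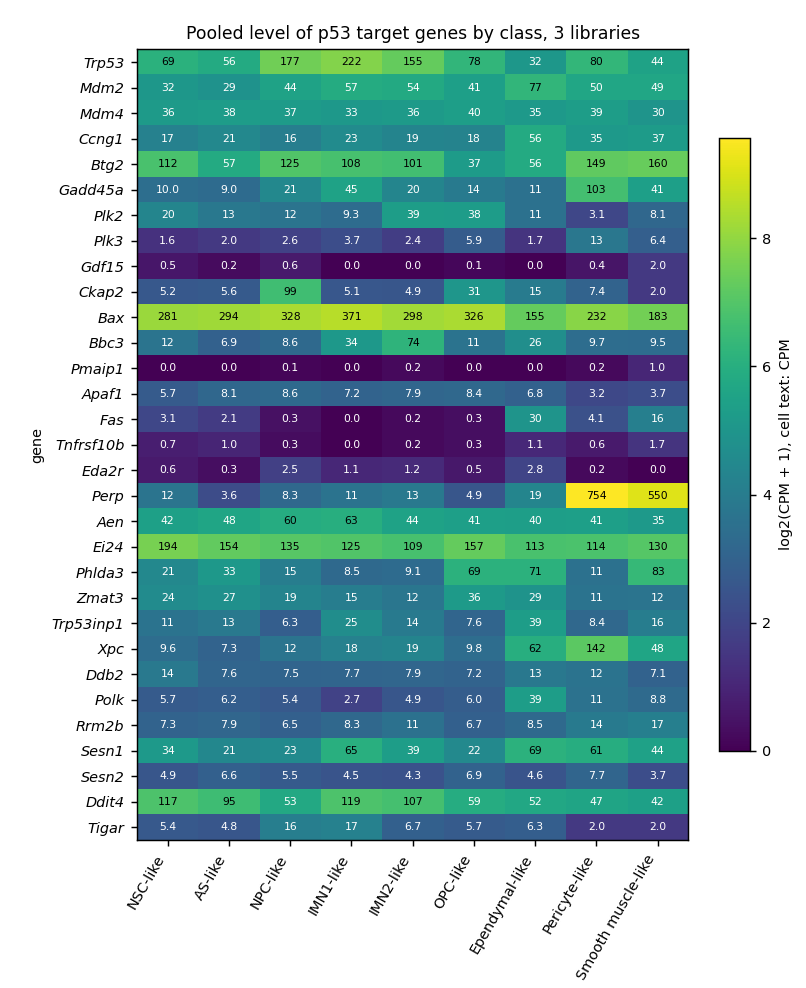
Pooled level of each member in 9 classes of Nestin-EGFP+ cells over the 3 libraries, with color as log2(CPM + 1) and the CPM in each cell of the grid. Perp stands out in pericyte-like (754 CPM) and smooth muscle-like (550 CPM) cells, Ckap2 in NPC-like cells (98.6 CPM), and Trp53 and Bax in IMN1-like cells, while Pmaip1, Gdf15, Tnfrsf10b and Eda2r are near 0 throughout.

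The third question was how the members differed with age within a class. The ages differ in more than age. There is 1 library per age, and both adult libraries are set against the same P5 library, so no test was applied and the p53 genes of 12w and 24w are not independent comparisons. The animals also differed in sex, with Xist without Y-linked genes in 20.1% of P5 cells, 92.4% of 12w cells and 0.0358% of 24w cells. Free RNA made up an estimated 8.67% of UMIs in NSC-like cells at 12w and 10.5% at 24w, and could not be estimated at P5. Age cannot be told apart from these differences. A gene was counted as higher or lower if both adult levels differed from P5 by 2-fold or more and in a common direction. At least 20 UMIs were asked for in the libraries on the higher side. A gene had enough UMIs for this rule with 20 at P5 or 20 at both adult ages. Setd8 met this rule in NSC-like cells, with 32.2, 13.9 and 12.2 CPM at P5, 12w and 24w, the last from 5 UMIs. It also met the rule in AS-like cells, with 33.0, 9.75 and 11.4 CPM, the last from 3 UMIs. In NPC-like, IMN1-like and IMN2-like cells Setd8 did not meet it. Levels and intervals here and below include free RNA unless its subtraction is stated.

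In NSC-like cells (1439, 435 and 116 cells from P5, 12w and 24w) the members gave little sign of a shared direction. Of the 25 members with enough UMIs, 1 was higher and 1 was lower, where 3.39% and 5.4% of all genes were. Their median log2 ratio to P5 was −0.00 at 12w and −0.09 at 24w, against 0.05 and 0.11 over all genes. Phlda3 was the lower member, with 24.8 CPM at P5, 9.95 CPM at 12w and, at 24w, 0 UMIs, where 3 UMIs would be 7.34 CPM. Taking this floor of 3 UMIs over the class, Phlda3 was at least 3.38-fold lower at 24w. Perp was the higher member, with 4.99, 29.2 and 51.4 CPM, but the free RNA alone was estimated to give 34.7 CPM at 12w and 55.0 CPM at 24w. This estimate exceeded the measured level at both ages, so subtraction left 0 UMIs of Perp. Whether Perp was lower than at P5, which was not corrected for free RNA, was therefore not measured.

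Of the 25 members, 2 (Perp and Ddb2) had intervals above P5 at both ages and 3 (Bax, Ei24 and Phlda3) had intervals below, where 12.6% and 9.71% of all genes did. Bax had 304, 210 and 179 CPM at P5, 12w and 24w, with log2 ratios to P5 of −0.53 (−0.71 to −0.36) at 12w and −0.76 (−1.13 to −0.43) at 24w. Ei24 had 205, 172 and 115 CPM, with log2 ratios of −0.25 (−0.45 to −0.06) and −0.82 (−1.29 to −0.41). Ddb2 was in the other direction, with 10.6, 18.6 and 39.2 CPM. Btg2 had 119, 101 and 61.2 CPM, with an interval that includes no difference at 12w and lies below P5 at 24w (log2 ratio −0.93, −1.59 to −0.38). Trp53 had 72.2, 59.7 and 44.0 CPM and Mdm2 32.2, 29.9 and 36.7 CPM, with intervals that include no difference from P5 at 12w for Trp53 and at both ages for Mdm2.

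AS-like cells (3497, 258 and 97 cells) shared the lower levels of Bax and Ei24. Bax had 301, 186 and 167 CPM at P5, 12w and 24w, and Ei24 158, 98.7 and 64.7 CPM, each with intervals below P5 at both ages. With Btg2 these were 3 of 27 members (7.88% of all genes), and 3 others, Perp, Xpc and Sesn1, had intervals above (10.3%). By the rule of size, 0 members were higher (2.89% of all genes) and 2 were lower (6.34%), Ckap2 and Zmat3, of 27 with enough UMIs. Zmat3 had 28.0, 11.0 and 11.4 CPM, the last from 3 UMIs, with an interval that includes no difference from P5 at 24w (log2 ratio −1.07, −3.58 to 0.26). It was not counted when only cells of at least 2000 UMIs were used. Ckap2 had 5.97 CPM at P5 and 0 UMIs at both adult ages, where 3 UMIs are 3.66 and 11.4 CPM, so that no difference was detectable at 24w at this depth. Sesn1 (19, 47.5 and 45.6 CPM) and Xpc (6.5, 13.4 and 41.8 CPM) were higher at both ages with too few UMIs at 24w for the rule, as was Perp (1.41, 31.7 and 60.9 CPM), for which free RNA alone was estimated to give 34.9 and 61.1 CPM at 12w and 24w. Btg2 had 58.2, 39.0 and 26.6 CPM, with intervals below P5 at both ages.

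In NPC-like cells (1274, 242 and 43 cells), most members with enough UMIs stood slightly higher in the adult libraries. The median log2 ratio of 27 members was 0.42 at 12w and 0.32 at 24w, against 0.13 and 0.16 over all genes. By the rule of size 1 member, Perp, was higher (1.52% of all genes) and 0 were lower (4.57%). Perp had 1.65, 34.4 and 71.1 CPM, with 34.8 and 59.9 CPM expected from free RNA at 12w and 24w. It had 16 UMIs at P5 and thus enough UMIs only through the adult libraries, where it is high. Its count is therefore no support for a shared direction. With Perp, 7 of the 27 members had intervals above P5 at both ages, as did 9.39% of all genes with enough UMIs, and 0 had intervals below (6.42%). Trp53 had 166, 227 and 244 CPM, Btg2 112, 192 and 186 CPM, and Ddit4 45.4, 89.2 and 102 CPM. Sesn1 had 20.1, 33.8 and 40.2 CPM, Xpc 9.98, 20.4 and 24.7 CPM, and Sesn2 3.09, 10.5 and 52.6 CPM, the last from 17 UMIs. Bax stayed near its P5 level in these cells, with 331, 318 and 315 CPM. Xpc and Sesn1 were also high in adult pericyte-like cells. The part of free RNA in their levels in NPC-like, AS-like and IMN2-like cells was not tested.

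The 2 classes of immature neurons had few members that met the rule of size. In IMN1-like cells (428, 240 and 32 cells) 0 members were counted as higher or lower (1.36% and 2.29% of all genes), and Mdm2 (47.6, 69.9 and 102 CPM) and Gadd45a (27.8, 74.1 and 74.9 CPM) had intervals above P5 at both ages, 2 of 17 members where 7.98% of all genes did, and 0 had intervals below (4.95%). In IMN2-like cells (672, 449 and 59 cells), 1 member was higher (1.81%) and 0 were lower (2.55%). This was Btg2, with 64.5, 159 and 139 CPM, which was not counted with doublets kept or with CPM divided by the median ratio. Plk2 had 17.3, 76.7 and 51.2 CPM, the last from 14 UMIs, and Trp53 139, 170 and 248 CPM. Xpc (11.4, 26.5 and 51.2 CPM) and Sesn1 (28.0, 54.2 and 62.1 CPM) also had intervals above P5 at both ages, which makes 5 of 20 members (9.96% of all genes), and Ei24 (122, 92.8 and 73.1 CPM) was the 1 member with intervals below (5.65%). Btg2 and Plk2 are known as immediate early genes in neurons. The summed level of 8 other immediate early genes, a list chosen after seeing the data, was 399, 1397 and 1155 CPM in IMN2-like cells, and the part of activity or handling of the cells in these levels was not tested.

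The classes of the vessel wall had the most members counted as higher or lower, and also the highest shares of all genes. In pericyte-like cells (475, 2457 and 1756 cells), 7 of 24 members with enough UMIs were higher and 3 were lower, where 14.7% and 10.6% of all genes were. By their intervals 10 members lay above P5 at both ages and 4 below, against 32.6% and 21.1% of all genes. Perp had 122, 971 and 948 CPM at P5, 12w and 24w, 7.93-fold and 7.74-fold above P5. Gadd45a had 29.5, 155 and 91.8 CPM, Btg2 62.6, 185 and 166 CPM, and Xpc 55.3, 169 and 173 CPM. Sesn1 had 15.3, 76.0 and 76.4 CPM, Ddit4 23.7, 54.4 and 54.6 CPM, and Ddb2 5.10, 11.0 and 17.1 CPM, with 14 UMIs at P5, so that it had enough UMIs through the adult libraries alone. Ddit4 and Ddb2 were not counted with cells of at least 2000 UMIs or with CPM divided by the median ratio, and Xpc was not within the largest cluster.

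Ckap2, Apaf1 and Phlda3 were the lower members in pericyte-like cells. Ckap2 had 26.2, 1.69 and 0.543 CPM, the last from 2 UMIs. Apaf1 had 7.64, 1.69 and 1.90 CPM and Phlda3 24.0, 4.45 and 8.97 CPM. The pericyte-like class differed in its make-up with age. Its largest cluster held 36, 1066 and 842 cells, and a cluster of 141 cells was present at P5 only. The summed level of 8 markers of dividing cells in it was 1787, 174 and 169 CPM from P5 to 24w, and its part in the lower Ckap2 was not tested. Within the largest cluster Ckap2, Apaf1 and Phlda3 had 0, 2 and 4 UMIs at P5, too few to be counted as lower. Without the cluster seen at P5 only, Ckap2 (8 UMIs at P5) and Apaf1 (11 UMIs) were also too few, and Phlda3 (37 UMIs) was still lower.

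Smooth muscle-like cells (98, 446 and 259 cells) shared several of these genes, with 4 of 14 members higher and 1 lower, against 14.8% and 8.91% of all genes. By their intervals 5 members lay above P5 at both ages and 1 below, against 24.7% and 18.2% of all genes. Perp had 157, 650 and 718 CPM, Gadd45a 8.51, 54.8 and 44.6 CPM, Xpc 18.4, 54.8 and 61.1 CPM, and Sesn1 17, 49.3 and 57.3 CPM. Gadd45a, Xpc and Sesn1 rest on 6, 13 and 12 UMIs at P5 and had enough UMIs only through the adult libraries, where they are high, so their count is no support for a shared direction. Against P5 cells of like sex Sesn1 was not counted and Ccng1 was, and with doublets kept Btg2 was counted as well. The lower member was Bax, with 311, 139 and 150 CPM, which was counted under each alternative. In ependymal-like cells (295, 34 and 61 cells), 0 members were higher or lower by the rule (0.942% and 4.91% of all genes), and Ccng1 (44.3, 114 and 93.9 CPM) and Fas (16.7, 96.3 and 71.3 CPM) had intervals above P5 at both ages, from 13 and 11 UMIs at 12w (2 of 19 members, 4.04% of all genes), while 0 had intervals below (4.3%).

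**Figure D4:**
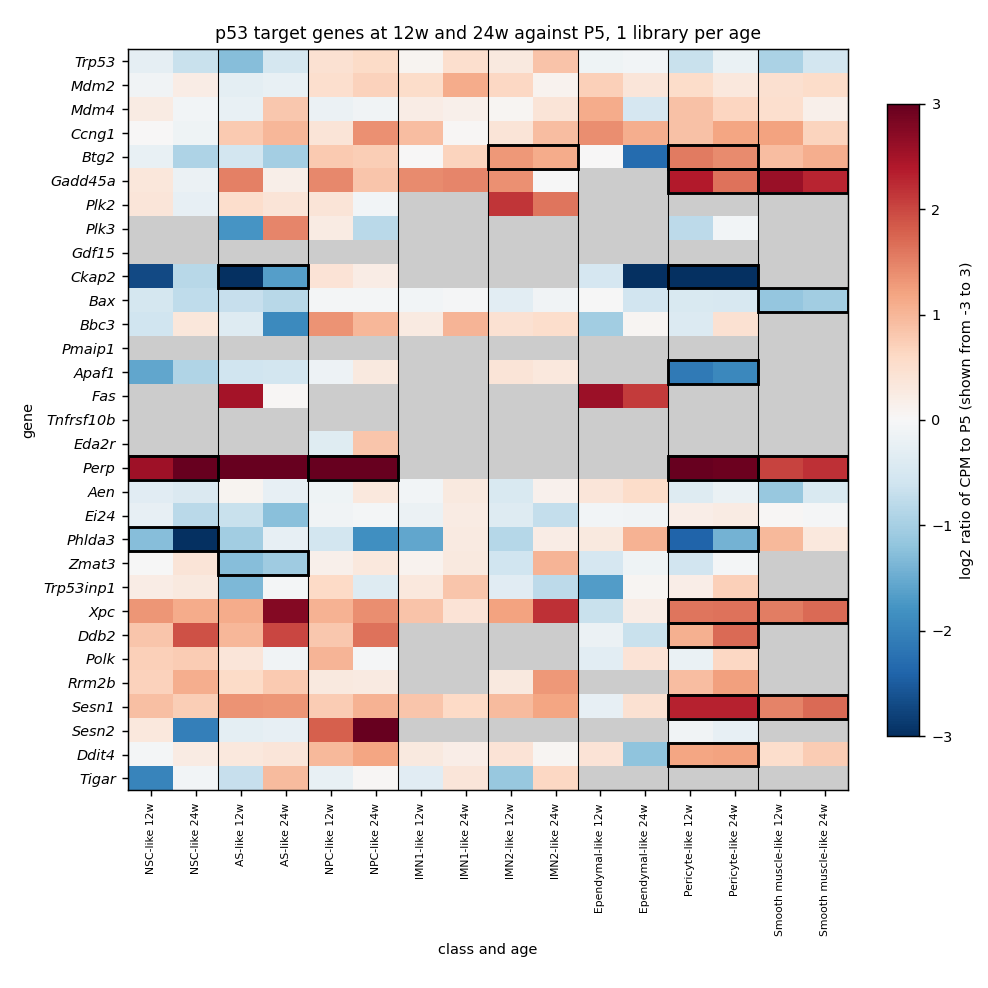
Log2 ratio of each member's CPM at 12w and 24w to P5 in 8 classes, 1 library per age, on a color scale cut at −3 and 3, with grey for members without enough UMIs (20 at P5 or 20 at both adult ages). Black boxes mark members that met the 2-fold rule, 1 higher and 1 lower in NSC-like cells against 7 higher and 3 lower in pericyte-like cells.

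The last question was whether the start sites of the members were open at each age. Transposase counts in peaks were pooled over 8788 (P5), 12638 (12w) and 6041 (24w) barcodes, each holding between 3000 and 100000 counts, over all cell types, so the differing mix of cells enters every value. All 23 members with a RefSeq start site had a peak within 1 kb of it at each age, against 61.6%, 63.6% and 61.0% of the 27025 genes. The peak covered the start itself for 22, 23 and 23 members. The signal within 1 kb ranged from 5.82 to 116 counts per 1000000 across members and ages. It was highest at Ddit4 (97.3, 103 and 116 at P5, 12w and 24w), Btg2 (98.6, 96.8 and 114) and Bbc3 (99.5, 98.8 and 103), and lowest at Fas at P5 and at Eda2r at 12w and 24w.

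Start sites of 12 of the 23 members were lower than at P5 at both adult ages beyond counting error, and those of 6 were higher. Over all 15684 genes with counts at each age the shares were 62.6% lower and 20.5% higher, so lower start sites were no more frequent among the members than among all genes. Eda2r had 13.4, 8.68 and 5.82 counts per 1000000, with a log2 ratio at 24w of −1.2 (interval −1.3 to −1.1). Tigar had 23.7, 15.6 and 12.1 (−0.97), Phlda3 30.6, 20.1 and 16.8 (−0.87) and Ckap2 35.6, 24.0 and 22.5 (−0.66). Phlda3 and Ckap2 thus had both less accessible start sites over all cells and lower RNA in some classes, but not in all. Their start-site ratios at 24w lay at percentiles 23.7 and 28.8 of all genes. In NPC-like cells, its highest class, Ckap2 had 93.6, 125 and 108 CPM, with an interval above P5 at 12w only. The interval of Phlda3 lay above P5 in ependymal-like cells at 24w (60.3, 70.0 and 124 CPM). It also did in smooth muscle-like cells at 12w (53.9, 106 and 67.5 CPM). The start sites of Gdf15 (29.2, 33.8 and 41.2), Fas (9.74, 12.2 and 13.7) and Gadd45a (52.9, 57.8 and 68.9) moved the other way. The median log2 ratio of the 23 members was −0.15 at 12w and −0.07 at 24w, against −0.26 and −0.26 over all genes.

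**Figure D5:**
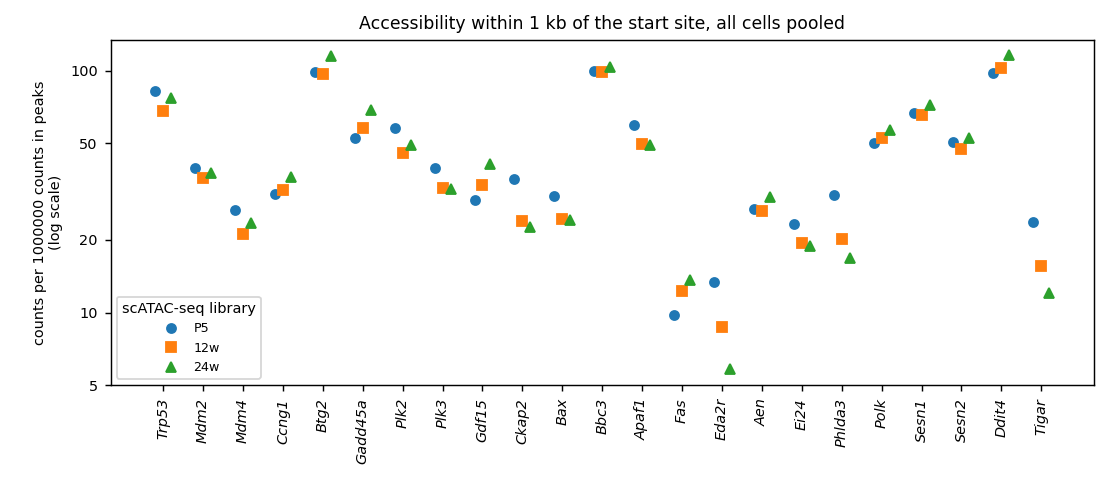
Transposase counts within 1 kb of the start site of 23 members per 1000000 counts in peaks, on a log axis, pooled over all cells of each scATAC-seq library (P5, 12w and 24w). Eda2r, Tigar, Phlda3 and Ckap2 step down from P5 to 24w, whereas Ddit4, Btg2 and Gadd45a are highest at 24w.

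The share of peaks at the members with a single decamer lay on either side of that of all peaks, on few peaks. Peaks were called per library and the windows lie at their centres, so the windows differ between ages. The shares are therefore no measure of a change with age. In windows of 300 bases at the peak centres, 5 of 72 peaks within 5000 bases of a member gene had one at P5 (6.94%), 12 of 81 at 12w (14.8%) and 10 of 79 at 24w (12.7%), against 10.5%, 10.7% and 10.6% of all peaks. A pair with at most 2 mismatches was found in 1, 4 and 3 of these peaks (1.39%, 4.94% and 3.8%), against 0.389%, 0.456% and 0.452% of all peaks. A separate search covered the whole length of the peaks at the members, and no share over all peaks was computed for it. It found a pair with 0 mismatches in an open region downstream of Ddit4, outside the window at the peak centre. This pair lay inside the peak of 97.3 to 116 counts per 1000000 that also covers the start site of Ddit4. Another such pair lay upstream of the gene, in a peak at 12w and 24w only. The downstream pair is shown in capitals because its peak was present at all 3 ages.
Ddit4, chr10:59948482-59948541, minus strand, downstream of the gene: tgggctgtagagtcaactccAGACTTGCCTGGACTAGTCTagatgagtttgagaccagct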

How the data were processed

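Members, lists and tests were chosen with earlier results of these data known. The RNA-seq files hold TPM made by the authors with Trimmomatic and STAR on mm10, with 1 file of gene symbols and 1 of lengths paired by row. TPM times length gave whole reads for 100% of genes under 1000 reads (tolerance 0.1 read). limma 3.58.1 with trend was run on log2(TPM + 1) for genes with a mean of at least 1 TPM, two-sided, with Benjamini-Hochberg adjustment over all of them. edgeR 4.0.16 (quasi-likelihood test) and DESeq2 1.42.0 on the reads were alternatives. On simulated data over 12703 genes, limma recovered 45% of 1.5-fold and 91% of 2-fold changes with 18 false calls.

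The scRNA-seq values are raw counts (UMIs) deposited by the authors from Cell Ranger 2.2.0 on mm10. Cells were barcodes of at least 1000 UMIs and 500 genes with mitochondrial UMIs of at most 10%, scrublet doublets were removed per library (932, 80 and 3 barcodes), and cells were integrated and clustered with Seurat 5.3.0 (2000 variable genes, 30 dimensions, resolution 0.8), without the members. At P5 only selected barcodes were listed. Free RNA was estimated from barcodes of 10 to 100 UMIs and 15 vascular markers. Log2 ratios have 0.5 UMIs added. On simulated NSC-like counts of 3334 genes the rule of size recovered 25% of 2-fold and 100% of 3-fold changes. The handling of haemoglobin-led and mixed clusters was chosen after seeing the data.

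The scATAC-seq values are raw transposase counts deposited by the authors, with peaks called per library by Cell Ranger ATAC. Ratio intervals are exact and conditional on the summed count. Members are named by their role, all 31 of them, and pathway genes by passing the test. A pathway gene that passed is not reported here. DNA sequences came from RefSeq. H4K20me1 ChIP-seq, bulk ATAC-seq and further RNA-seq replicates were not analysed here.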

Additional observations from a re-analysis of the deposited data

Results flagged for a closer look

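Btg2 differed with age in opposite directions between classes. Its log2 ratio at 24w to P5 was −1.03 in AS-like cells, against 0.75 in NPC-like, 1.12 in IMN2-like, 1.41 in pericyte-like and 1.09 in smooth muscle-like cells. The intervals of each of these classes lay on the same side of P5 at 12w and 24w. At 24w alone the interval also lay below P5 in NSC-like (−0.93, −1.59 to −0.38, from 25 UMIs) and ependymal-like cells (−2.31, −4.83 to −0.93, from 3 UMIs), and above P5 in IMN1-like cells (0.68, 0.07 to 1.2). The difference between the classes was not tested, since each age is 1 library, and the level in AS-like cells at 24w rests on 7 UMIs. The summed level of 8 other immediate early genes, from P5 to 24w, went from 734 to 350 CPM in AS-like, from 1418 to 514 CPM in NSC-like and from 963 to 353 CPM in ependymal-like cells. It went from 443 to 424 CPM in NPC-like and from 694 to 653 CPM in pericyte-like cells, where Btg2 was higher. It went from 313 to 465 CPM in IMN1-like, from 399 to 1155 CPM in IMN2-like and from 857 to 1545 CPM in smooth muscle-like cells. Their part in the levels of Btg2 was not tested.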

How the results depend on the processing

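No paired analysis was possible because the 2 RNA-seq groups share at most 1 replicate number, and each single-cell group is 1 library. Over all alternatives but the grouping by titles, 302 values for single genes of the RNA-seq kept their direction and side of the threshold, 14 fell short of the threshold, 2 newly passed it and 1 turned its direction. Grouping the RNA-seq by GEO titles (1 control against 3) left 0 genes higher and 0 lower with limma, 0 members in either direction, and 86 genes at an unadjusted p under 0.05. Setd8 was then at −0.76 and not past the threshold, and Btg2 (−0.0121), Ddb2 (−0.0626), Perp (−0.0004), Rrm2b (−0.127) and Sesn1 (−0.0849) turned below 0. Without a filter on low values 1196 genes were higher and 1038 lower, with 9 members higher and 0 lower. edgeR called 2891 genes higher and 2961 lower, DESeq2 2162 and 2287. Leaving out each control in turn gave 1901 to 2810 higher and 2076 to 2953 lower genes, with Rrm2b from −0.0603, without the library titled Setd8KD_2, to 0.0787.

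In the scRNA-seq, NSC-like cells had 0 members higher with cells of at least 2000 UMIs (3.23% of all genes). The same held with free RNA subtracted (3.07%) and in the largest cluster (3.53%). Of 25 members, 3 were lower with doublets kept (6.54% of all genes) and 2 with CPM divided by the median ratio (6.27%). Free RNA subtraction and the 1.5-fold rule each gave 3 lower (7.24% and 11.8%). With free RNA subtracted Perp was at −3.80 (12w) and −1.89 (24w) in NSC-like and −2.41 (12w) in NPC-like cells. The rule at 1.5-fold gave 4 lower members in AS-like and 3 higher in NPC-like cells, which had 0 higher with free RNA subtracted or in the largest cluster. IMN2-like cells had 0 higher with doublets kept (1.72% of all genes) or with CPM divided by the median ratio (1.36%). Pericyte-like cells had 5 higher with cells of at least 2000 UMIs (13.5% of all genes) or with CPM divided by the median ratio (10.9%). They had 0 lower against P5 cells of like sex (5.33%) and in the largest cluster (2.70%). Without the cluster seen at P5 only, an alternative chosen after seeing the data, 1 was lower (7.23%). All 3 lower members had fewer than 20 UMIs at P5 in the first 2 of these subsets, and Ckap2 and Apaf1 in the last, so they could not be counted there. Within the 24w library alone, 19 of 31 members had the same highest class as in the pooled libraries. The cause of these changes was not tested. In the scATAC-seq, every member's log2 ratio at its start site stayed within its counting interval when only barcodes with more than 6000 counts were used. Depth limits the neural classes most at 24w, from 186944 UMIs in IMN1-like to 408615 UMIs in NSC-like cells, whereas in pericyte-like and smooth muscle-like cells P5 was the shallowest library.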

Other observations

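Other genes of the p53 pathway also differed with age by the rule of size. In AS-like cells 1 of 52 was higher, Abhd4, and 6 were lower, Rpl11, Cyfip2, Trp53i11, Igfbp3, Rap2b and Ccnd2, where 2.89% and 6.34% of all genes were. Abhd4 was not counted with CPM divided by the median ratio. Of the 6 lower genes, all but Cyfip2 were also lower with cells of at least 2000 UMIs. Against P5 cells of like sex all but Cyfip2 and Trp53i11, which had too few UMIs at P5 (18), were lower. In pericyte-like cells 8 of 44 were higher and 7 lower (14.7% and 10.6% of all genes), among the higher ones Bcl2, Bcl2l11 and Epha2. Bcl2 was also counted within the largest cluster, Bcl2l11 and Epha2 were not. The lower ones were H2afx, Rpl11, Cdkn1a, Trp53i11, Psrc1, Ccnd2 and Bak1, of which all but Rpl11 had fewer than 20 UMIs at P5 within the largest cluster and could not be counted there. In smooth muscle-like cells 4 of 24 were higher, among them Cdkn1a, Bcl2l1 and Ephx1, and 5 lower, H2afx, Rpl11, Fbxw7, Trp53i11 and Bak1 (14.8% and 8.91%). Bcl2l1 was not counted with CPM divided by the median ratio or against P5 cells of like sex. Fbxw7, Trp53i11 and Bak1 were not counted with doublets kept, nor Fbxw7 with cells of at least 2000 UMIs. Against P5 cells of like sex only Rpl11 was counted as lower. Trp53i11 had enough UMIs there (21), while H2afx, Fbxw7 and Bak1 had too few. In ependymal-like cells 1 of 35 was higher, Chek2, and 2 lower, H2afx and Bak1 (0.942% and 4.91%), and in IMN1-like and IMN2-like cells 0 were higher or lower. Cdkn1a, which encodes the cell cycle inhibitor p21, had 12.0, 24.5 and 83.5 CPM in NPC-like cells from P5, 12w and 24w, and was the only one of 52 pathway genes with enough UMIs to be higher there, where 1.52% of all genes were. It was not counted with CPM divided by the median ratio or within the largest cluster. In pericyte-like cells it was lower, with 24.7, 9.95 and 7.88 CPM, but had too few UMIs at P5 (12 and 10) to be counted against P5 cells of like sex or within the largest cluster. In smooth muscle-like cells Cdkn1a was higher, with 14.2, 103 and 87.9 CPM, from 10 UMIs at P5. It had enough UMIs there only through the adult libraries, where it is high, so its count is no support for a shared direction. In NSC-like cells 3 of 47 pathway genes were lower, Trp53i11, Igfbp3 and Rap2b, near the 5.4% of all genes. Rap2b was also counted against P5 cells of like sex and within the largest cluster, where Igfbp3 had too few UMIs at P5 (7 and 16). Trp53i11 had too few against P5 cells of like sex (16) and enough within the largest cluster (34), where it was not counted. Cdkn1a itself had 3.22, 1.99 and 2.45 CPM, the last from 1 UMI. In ependymal-like cells it had 115, 131 and 131 CPM.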
